A study of Mus musculus with 8 samples.

Results

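The widest regions in the WFS1 ChIP-seq of proliferating C2C12 cells, an established mouse myoblast line, are described here. Overlapping peaks called after 30 and after 36 sonication cycles were merged, and autosomal merged peaks of at least 1200 bp, from start to end, were kept and are called wide peaks. They numbered 773 of 22020 autosomal merged peaks (3.51%), out of 22292 merged peaks on all chromosomes. The members were chosen by their measured width, so that width, and whatever follows from merging, is given as a description. The groups used were wildtype cells after 30 cycles and after 36 cycles, with 1 library each. Both came from 1 immunoprecipitation with an antibody against WFS1 after crosslinking with DSG and formaldehyde, of which a part was sonicated for 6 further cycles, so the lists are not replicates of each other. The other 6 of the 8 libraries, which are inputs and the libraries of WFS1 knockout cells expressing FLAG-tagged WFS1, were not used here. The lists hold positions with no peak height, score or read count, so the depth behind a width is unknown. No test between conditions was possible. Shares are given with 95% Wilson intervals that cover counting error over peaks only, and positions are on GRCm38.

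WFS1 is a membrane protein of the endoplasmic reticulum that can also be found in the inner nuclear membrane, and variants of its gene are known from Wolfram syndrome. Enhancers are stretches of DNA, often far from the gene they act on, where transcription factors gather. In myoblasts such factors include MyoD, which binds the E-box CAGCTG, the AP-1 dimers of Fos and Jun proteins, which bind TGACTCA, and the RUNX and TEAD families. Snail and E2A proteins bind the E-box CAGGTG. WFS1 itself is not known as a DNA-binding transcription factor, and a ChIP region after protein-protein crosslinking can include DNA held by partner proteins.

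Sequences from the wide peaks fell into a few kinds, of which examples are shown. The following windows of 200 bp, on the plus strand, come from the members with the most AP-1 heptamers and hold the most of them, with TGACTCA or its reverse complement TGAGTCA in capitals. The first lies at chr4:99168505-99168704 between genes near Atg4c, a protease of autophagy, and the second at chr19:8982773-8982972 upstream of Ahnak, which encodes a giant scaffold protein. The third lies at chr15:10816171-10816370, in a member 99.5 kb upstream of the start site of Rai14.
Atg4c window: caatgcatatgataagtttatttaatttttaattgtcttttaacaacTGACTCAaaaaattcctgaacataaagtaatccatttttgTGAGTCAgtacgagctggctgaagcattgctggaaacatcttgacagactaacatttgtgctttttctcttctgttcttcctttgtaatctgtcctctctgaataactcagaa
Ahnak window: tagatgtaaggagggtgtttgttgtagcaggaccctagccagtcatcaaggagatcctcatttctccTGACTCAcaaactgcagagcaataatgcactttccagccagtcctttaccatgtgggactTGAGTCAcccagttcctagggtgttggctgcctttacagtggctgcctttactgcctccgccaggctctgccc
Rai14 window: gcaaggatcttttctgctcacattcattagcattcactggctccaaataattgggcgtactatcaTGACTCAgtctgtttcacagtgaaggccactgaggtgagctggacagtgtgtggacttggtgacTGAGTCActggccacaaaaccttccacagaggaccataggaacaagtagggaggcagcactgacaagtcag
Windows from members with the most CAGCTG are shown for the tandem and the dispersed arrangement of this E-box, in capitals. The Dyrk1a window (chr16:94698193-94698392) is between genes, 128.1 kb from the start site of this kinase gene. The Dysf window (chr6:84274144-84274343) lies in the noncoding gene Gm44127, and the Mtdh window (chr15:33907116-33907315) lies between genes.
Dyrk1a window: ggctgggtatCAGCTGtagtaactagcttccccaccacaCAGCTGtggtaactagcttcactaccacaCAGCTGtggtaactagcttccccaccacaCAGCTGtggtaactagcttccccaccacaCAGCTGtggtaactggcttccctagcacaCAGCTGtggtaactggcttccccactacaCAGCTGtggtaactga
Dysf window: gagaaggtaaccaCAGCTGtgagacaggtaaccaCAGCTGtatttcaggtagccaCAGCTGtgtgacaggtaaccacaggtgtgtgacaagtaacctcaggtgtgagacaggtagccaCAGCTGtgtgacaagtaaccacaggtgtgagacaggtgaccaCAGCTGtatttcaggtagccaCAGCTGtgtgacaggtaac
Mtdh window: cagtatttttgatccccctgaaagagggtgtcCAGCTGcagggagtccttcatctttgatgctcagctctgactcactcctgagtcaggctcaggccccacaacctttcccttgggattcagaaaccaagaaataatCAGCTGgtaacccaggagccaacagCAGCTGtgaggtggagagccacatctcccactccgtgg
In an intron of Slc6a17, a transporter gene, a window at chr3:107478278-107478477 shows CAGGTG in capitals. From the gene Gm3325 near Zfp808, 168 bp at chr13:62049766-62049933 show a pair of units of the 84 bp repeat of zinc finger exons, printed in lower case throughout. Both were chosen after their values were seen.
Slc6a17 window: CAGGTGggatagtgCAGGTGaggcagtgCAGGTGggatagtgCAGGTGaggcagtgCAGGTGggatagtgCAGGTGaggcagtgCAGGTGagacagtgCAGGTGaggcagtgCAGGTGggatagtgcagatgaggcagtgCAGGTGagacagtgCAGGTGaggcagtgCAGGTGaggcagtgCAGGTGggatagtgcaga
Gm3325 window: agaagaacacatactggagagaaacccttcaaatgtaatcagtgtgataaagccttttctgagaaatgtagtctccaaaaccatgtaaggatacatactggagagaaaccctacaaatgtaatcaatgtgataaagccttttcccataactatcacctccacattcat
The AP-1 windows held 2 sites each, whereas the Dyrk1a window repeated CAGCTG 7 times and the Slc6a17 window repeated CAGGTG 13 times. The pair of 84 bp units in Gm3325 was identical at 67 of 84 positions.

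The wide peaks ranged from 1200 to 3800 bp, with a median of 1439 bp and quartiles of 1304 and 1685 bp. They held 1206686 bp, or 11.4% of the autosomal sequence under merged peaks. Of them, 455 were under 1500 bp, 233 had 1500 to under 2000 bp, 52 had 2000 to under 2500 bp, 26 had 2500 to under 3000 bp and 7 reached 3000 bp. The limit of 1200 bp cut through a continuous distribution. Just inside it were members of 1200 bp in Slc25a24, which encodes a mitochondrial carrier, near Bicd1 and near Irf2bpl. Just outside were peaks of 1198 bp near Rock2, a kinase of the actomyosin cytoskeleton, and others 1 bp wider in Me1 and near Mtss1. Outside the autosomes 4 merged peaks were as wide, 1 on chromosome X and 3 on the mitochondrial genome, and these were not members.

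Of the wide peaks, 761 (98.4%) held peaks of both lists, against 35.6% of all autosomal merged peaks. A wide merged peak is more likely to contain a peak of each list by construction, so nothing is read from this share. The 30-cycle list alone held 11 and the 36-cycle list alone 1, an exon region of the zinc finger gene Zfp945. Exactly 1 peak of each list made up 407 members (52.6%), and 354 (45.8%) held 3 or more listed peaks. In 199 members the 36-cycle list had several peaks where the 30-cycle list had 1, in 109 the reverse held, and in 46 both lists had several. A single peak of at least 1200 bp was present in the 30-cycle list in 463 members and in the 36-cycle list in 276, with 153 in both. In 187 members neither list had such a peak, and the width came from joining. A median of 62.9% of a member's width was covered by both lists. Among the 407 members with 1 peak of each list, the 30-cycle peak was the wider in 249 and the 36-cycle peak in 158.

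**Figure D1:**
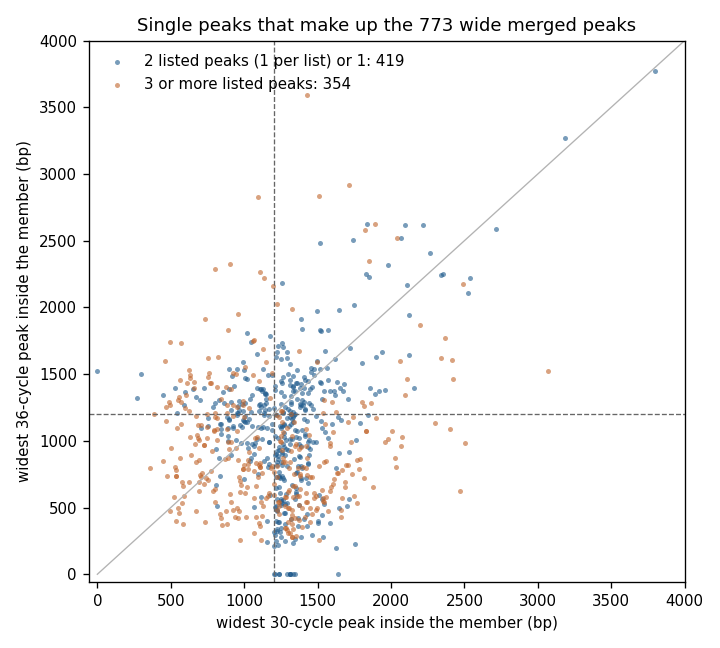
Width of the widest 30-cycle peak (x axis, bp) against the widest 36-cycle peak (y axis, bp) in each of the 773 wide peaks, coloured by the number of listed peaks; dashed lines mark 1200 bp, the diagonal marks equal width, and 0 means that a list had no peak there. The 187 members below and left of both dashed lines reached 1200 bp only by merging.

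The 15 widest peaks were of several kinds. At the top was chr17:39842959-39846758, 3800 bp wide, which covers the noncoding gene Gm26917 and an annotated ribosomal RNA gene. Its single peaks were 3800 bp after 30 cycles and 3773 bp after 36 cycles, and its GC content of 67.6% stood above the mean of wide peaks of 47.4 ± 6.21% (SD, n = 773). Ribosomal RNA genes are present in many near-identical copies, and how many copies feed this position cannot be told from the lists. The next was a region of 3796 bp between genes, 239.6 kb upstream of Dab2, which encodes an endocytic adaptor, joined from 2 peaks of each list. Cd44, the gene of the hyaluronan receptor, had a member of 3590 bp at 54.5 kb upstream, which was a single peak after 36 cycles and a pair after 30 cycles.

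Neat1, the long noncoding RNA that builds paraspeckles, held the members ranked the fourth and the sixth, of 3285 and 3111 bp. They lay next to each other at chr19:5841478-5844762 and chr19:5838213-5841323, within the annotated gene. A further member of 1430 bp lay nearby in Frmd8os. This was also the most crowded place among the 15 widest, with 45 other merged peaks within 50 kb of each of the pair. The member ranked the fifth, 3267 bp in an intron of Slc6a17, was a tandem array with 118 CAGGTG and no AP-1 or CAGCTG.

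The remaining 9 of the 15 included regions near genes of signalling and adhesion. They were 3013 bp at 28.5 kb upstream of Pde8a, a cyclic AMP phosphodiesterase gene, 2993 bp in the noncoding gene Gm38407 with Rdh14 the nearest, and 2969 bp upstream of Mtdh. Next came 2958 bp in Wwp2, a ubiquitin ligase gene, 2836 bp in Specc1 with Adora2b, an adenosine receptor gene, the nearest start site, and 2824 bp at 35.9 kb upstream of Dap. Bcar1, which encodes a scaffold of focal adhesions, had a member of 2805 bp at 1.957 kb upstream. The last were 2764 bp upstream of Ddi1 and 2682 bp in Kansl2, a gene of a histone acetyltransferase complex, where the member also covers the small nucleolar RNA gene Snora2b. Of the 15, 11 held at least 1 AP-1 heptamer and 12 at least 1 CAGCTG, and 7 were centred between genes.

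By the position of their centre, 89 wide peaks (11.5%, interval 9.45 to 13.96%) lay within 1 kb of an annotated start site, 349 (45.2%) elsewhere in a gene and 335 (43.3%, interval 39.9 to 46.9%) between genes. The other merged peaks had 17.0% at start sites and 36.1% between genes, both outside the intervals of the wide peaks. Set beside the 1838 merged peaks of 800 to under 1200 bp, the share at start sites (11.4%) lay inside the interval, and the share between genes (39.5%) lay just below it. The lower share at start sites was thus shared with peaks of 800 bp and more. More than 50 kb from any protein-coding start site lay 46.6% of wide peaks (interval 43.1 to 50.1%), 39.5% of peaks of 800 to under 1200 bp and 37.1% of all others. The median distance to a protein-coding start site was 42.0 kb for wide peaks, 33.5 kb for peaks of 800 to under 1200 bp and 28.7 kb for all others. Only protein-coding genes considered, 53 wide peaks (6.86%) were at a start site, among them Hes1, Fn1 and Fosl2.

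The wide peaks tended to have neighbours. A further merged peak lay within 5 kb of 443 of them (57.3%, interval 53.8 to 60.8%), compared with 52.6% of peaks of 800 to under 1200 bp and 44.2% of all others. At least 10 further peaks within 50 kb were found around 75 wide peaks (9.70%, interval 7.81 to 11.99%), around 7.78% of peaks of 800 to under 1200 bp and around 4.86% of all others. Where neighbours were themselves wide, 38 pairs, 5 groups of 3 and 2 groups of 4 lay within 10 kb of the next, and 674 wide peaks had no wide neighbour at that distance. The first group of 4 spanned 29.4 kb in Dlgap1, which encodes a synaptic scaffold protein and lies beside Tgif1, a repressor gene of TGF-beta signalling. The other spanned 11.4 kb in 1700026F02Rik and consisted of tandem repeats with a period of 38 bp.

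By chromosome, wide peaks were most frequent on chromosome 15, with 82 members, 0.788 per Mb and 5.42% of its merged peaks (interval 4.39 to 6.68%). Over all autosomes there were 0.314 per Mb. The lowest density was on chromosome 7, with 23 members or 0.158 per Mb, and chromosomes 19, 11 and 10 had 0.553, 0.532 and 0.528 per Mb. As a share of merged peaks, chromosome 7 had 2.44% (interval 1.63 to 3.63%), chromosome 19 4.57% (3.29 to 6.32%) and chromosome 11 3.89% (3.06 to 4.93%). These intervals include the 3.51% of all autosomes, and that of chromosome 10 (4.52%, 3.58 to 5.68%) lies above it. Copy numbers of C2C12 chromosomes, which a cell line can change, were not measured here, and their part in these densities was not tested.

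Repeats, counted as the lower-case bases of the reference sequence, made up 17.6% of the bases of wide peaks, 18.2% of those of the other peaks and 33.5% of the autosomes. The number of members with over 50% repeat bases was 28 (3.62%, interval 2.52 to 5.19%), against 10.6% of the other peaks, and 3.21% of peaks of 800 to under 1200 bp. CpG-rich sequence, with at least 60% GC and a CpG ratio of at least 0.6, was found in 22 wide peaks (2.85%, interval 1.89 to 4.27%), in 3.70% of peaks of 800 to under 1200 bp and in 6.74% of all others.

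A tandem repeat was present in 35 wide peaks (4.53%, interval 3.27 to 6.23%), taken as an identity of at least 50% when the sequence is shifted against itself by 5 to 200 bp, a definition chosen after the data were seen. Of the peaks of 800 to under 1200 bp 2.34% met it, and of all others 3.21%. The commonest kind had a period of 84 bp, or of 168 bp, which is that of the coding repeats of C2H2 zinc finger genes. It was found in 18 wide peaks (2.33%, interval 1.48 to 3.65%), in 1.31% of peaks of 800 to under 1200 bp (interval 0.879 to 1.94%) and in 0.518% of all others. The intervals of wide peaks and of those just below them overlapped. These shares are per peak and take no account of width, and the longest shifts could not be tried in the narrowest peaks. Exons of genes named Zfp were overlapped by 0.776% of wide peaks, 0.979% of peaks of 800 to under 1200 bp and 0.475% of all others. Per Mb of peak sequence, 4.97 wide peaks, 10.2 peaks of 800 to under 1200 bp and 10.8 of all others did so.

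The 18 members with the period of the zinc finger repeat were called by that period alone, and their coding sequence was not examined. They were 1200 to 2321 bp wide, with a GC content of 34.4 to 44.02%, and none of the 18 held an AP-1 heptamer or a CAGCTG. An exon was overlapped by 15, and 17 were in both lists. The highest identity, 86.5%, was in Gm3325 near Zfp808, whose units are shown above. Others lay in Zfp930 (77.9%), Zfp873 (76.4%), Zfp958 (68.2%) and Zfp810 (66.9%), which encode zinc finger proteins, and in 2410141K09Rik, Gm5165 and Gm5141. Genes of this family lie in clusters of similar copies, and short reads from such copies can be hard to tell apart.

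A separate kind of array was rich in CAGGTG. At least 20 copies of this E-box were found in 13 wide peaks (1.68%, interval 0.985 to 2.86%), in 0.381% of peaks of 800 to under 1200 bp (interval 0.185 to 0.784%) and in 30 autosomal merged peaks in all. A count of copies grows with the width of an array, so that part of the difference follows from the choice by width. The Slc6a17 member held 118 copies, the member near Rab12 84 in 1746 bp, and the member near Fzd7, a Wnt receptor gene, 48 in 1687 bp. All 13 were in both lists. Few or none of their bases were in lower case in some of them: the Slc6a17 member had 0% and the Glrp1 member 5.11% repeat bases, so the masking of the reference missed these arrays. With the tandem repeats of at least 50% identity left out, CAGGTG was found 0.664 times per kb in wide peaks and 0.623 times per kb in the others. All wide peaks had 1.01 per kb. The value of 0.664 still includes arrays below that identity. They have Dysf, Cacng4, Acvr1b and, for 1 member of 1548 bp, Fam120a as nearest gene, with 30, 33, 24 and 29 copies and identities of 44.3 to 48.4%.

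**Figure D2:**
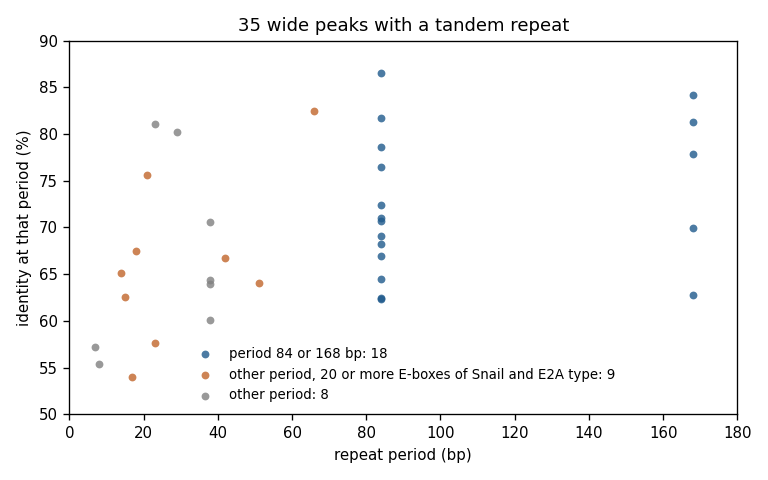
Period of the repeat (x axis, bp) and identity of the sequence with itself at that period (y axis, %) for the 35 wide peaks with a tandem repeat, 1 point each. The 18 points at 84 and 168 bp have the period of zinc finger repeats, and 9 of the other 17 hold at least 20 E-boxes of the kind CAGGTG, marked as Snail and E2A type.

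Genes of transfer RNA, which RNA polymerase III transcribes, were covered by 18 wide peaks (2.33%, interval 1.48 to 3.65%). Together these held 49 of the 391 autosomal tRNA genes in RefSeq, a mean of 2.72 per member, and 16 of the 18 held several. A tRNA gene was overlapped by 1.52% of peaks of 800 to under 1200 bp and by 0.617% of all others. Per Mb of peak sequence, 14.9 wide peaks, 15.9 peaks of 800 to under 1200 bp, 14.04 of all others and 22.6 of the 7082 narrower peaks in both lists did so. On chromosome 11 lay 7 of these members, among them 1852 bp with 4 tRNA genes and 1273 bp with 3, both near Aurkb, the gene of a mitotic kinase, and 1538 bp with 4 near Borcs6. On chromosome 13 lay 4, of which 1, with 1253 bp, also overlapped the histone gene Hist1h4h. The histone gene Hist1h1c was overlapped by a member of 1428 bp that held no tRNA gene. Of the 18 members, 16 held no AP-1 heptamer and 10 no CAGCTG, and the 30-cycle peak was wider than the 36-cycle peak in 14. The comparison with tRNA and histone genes was chosen after the data were seen.

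The AP-1 heptamer was searched as TGACTCA on both strands. In the central 200 bp it was present in 105 wide peaks (13.6%, interval 11.3 to 16.2%), compared with 18.1% of the other peaks, 19.5% of peaks of 800 to under 1200 bp and 3.14% of all 200 bp windows of the autosomes. The ratio of wide peaks to all others was 0.749 (95% interval 0.626 to 0.897), to narrower peaks in both lists 0.630 (interval 0.525 to 0.757) and to peaks of 800 to under 1200 bp 0.697 (interval 0.571 to 0.852). The size of the difference depended on where the centre was set and on the peaks compared. Around the middle of the longest stretch covered by both lists, 18.2% of wide peaks (interval 15.7 to 21.1%) and 18.7% of all others held the heptamer, a ratio of 0.975. Peaks without such a stretch kept their midpoint. Only 7082 of the 21247 other peaks were in both lists, so this ratio mixes centres of different kinds. At that centre the share was 23.3% in narrower peaks in both lists and 21.5% in peaks of 800 to under 1200 bp, both above the interval of the wide peaks. In the central 500 bp it was 31.0% in wide peaks (interval 27.9 to 34.4%) and 32.1% in all others, and 39.6% and 39.9% in those same narrower groups.

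Over their whole length, wide peaks held 0.612 AP-1 heptamers per kb, which was 2.75 times the 0.223 per kb of their own flanks, from 200 bp beyond the edge to 3 kb from the centre. Other peaks held 0.853 per kb and the autosomes 0.166 per kb. At least 1 heptamer was found in 455 wide peaks (58.9%) and at least 2 in 211 (27.3%), compared with 20.2% and 2.58% of autosomal windows of 1400 bp, a length close to the median of the wide peaks. The largest number was 5, in the members near Atg4c and Ahnak shown above, 12 members held 4, and 318 held none. Between neighbouring heptamers of a member the median distance was 304 bp, and 35.9% of 284 such pairs were within 200 bp. In 5 equal parts of the width, 15.2, 23.0, 25.03, 21.4 and 15.4% of the heptamers lay from the left edge to the right, which is a broad rise towards the middle.

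The E-box CAGCTG, a palindrome, was present in the central 200 bp of 121 wide peaks (15.7%, interval 13.3 to 18.4%), in 18.1% of the others, in 17.95% of peaks of 800 to under 1200 bp and in 7.37% of the autosomal windows. The ratio to all others was 0.866 (95% interval 0.733 to 1.02), an interval that includes 1. Against narrower peaks in both lists, of which 21.4% held it, the ratio was 0.733 (interval 0.618 to 0.868). Against peaks of 800 to under 1200 bp it was 0.872 (interval 0.7205 to 1.055), which includes 1. Around the middle of the stretch in both lists, the share was 19.7% in wide peaks (interval 17.0 to 22.6%), 18.4% in all others, a ratio of 1.07, and 22.4% in narrower peaks in both lists. Here too, peaks without such a stretch, which most of the others were, kept their midpoint. At least 1 CAGCTG was found in 521 wide peaks (67.4%) and at least 2 in 273 (35.3%), compared with 40.3 and 11.9% of the autosomal windows of 1400 bp. In 5 equal parts of the width, 20.2, 20.5, 21.1, 20.6 and 17.7% of the sites were found, which is nearly even. The member with Dyrk1a as nearest gene held 38 of them in a 29 bp repeat. A member 264.1 kb downstream of the Dysf start site held 16, and one on chromosome 18, 350.9 kb downstream of that of Ss18, held 9. One 1.35 kb upstream of the laminin gene Lama5 held 7, and the Mtdh member, 173.9 kb upstream, held 6.

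**Figure D3:**
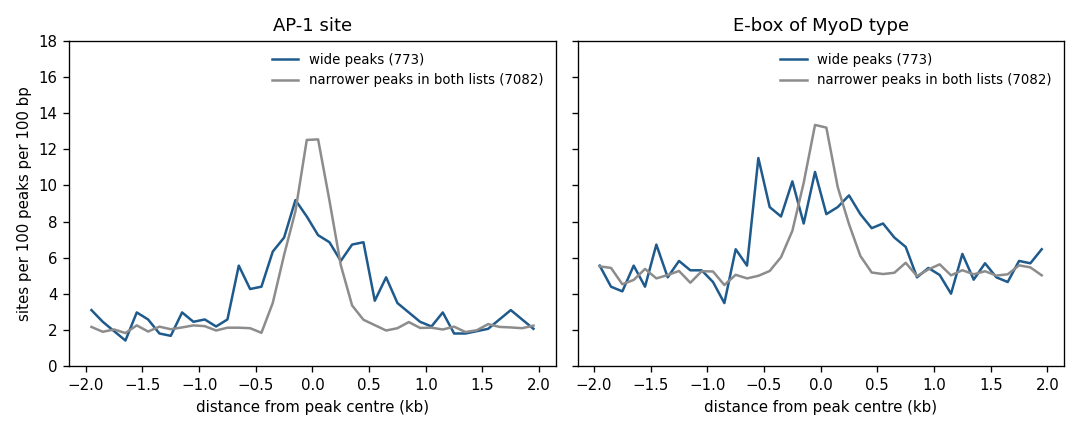
AP-1 heptamers (left) and CAGCTG E-boxes, marked as MyoD type (right), per 100 peaks in each 100 bp (y axis) by distance from the peak centre (x axis, kb), for the 773 wide peaks and the 7082 narrower peaks in both lists. The narrower peaks have a sharp maximum at the centre and the wide peaks a lower, broader one.

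Other motifs were searched on both strands in the same central 200 bp. The RUNX heptamer TGTGGTT was in 9.44% of wide peaks and 10.6% of the others, and the TEAD hexamer GGAATG in 15.1 and 15.6%, against 4.73 and 10.8% of autosomal windows. The ratios to all others were 0.889 (interval 0.712 to 1.11) and 0.971 (interval 0.820 to 1.15), and against narrower peaks in both lists they were 0.712 (interval 0.568 to 0.893) and 0.808 (interval 0.679 to 0.961). To peaks of 800 to under 1200 bp they were 0.949 (interval 0.733 to 1.23) and 0.872 (interval 0.718 to 1.06), and both intervals include 1. The GC box GGGCGG of SP and KLF factors was in 6.08 and 8.65%, with a ratio of 0.703 (interval 0.531 to 0.931), whereas the ratio to narrower peaks in both lists was 0.846 (interval 0.633 to 1.13). To peaks of 800 to under 1200 bp the ratio was 0.816 (interval 0.592 to 1.12). The cyclic AMP element TGACGTCA was in 0.388 and 0.471%, and the ETS site CCGGAAG in 1.55 and 1.72%. Anywhere in the member, AP-1 and CAGCTG occurred together in 310 wide peaks (40.1%), all of AP-1, CAGCTG, RUNX and TEAD in 121 (15.7%) and none of them in 33 (4.27%). Those 33 included the Slc6a17 array, the tRNA regions at Aurkb, Cfap126 and Aloxe3, and zinc finger genes such as Zfp930 and Zfp873.

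**Figure D4:**
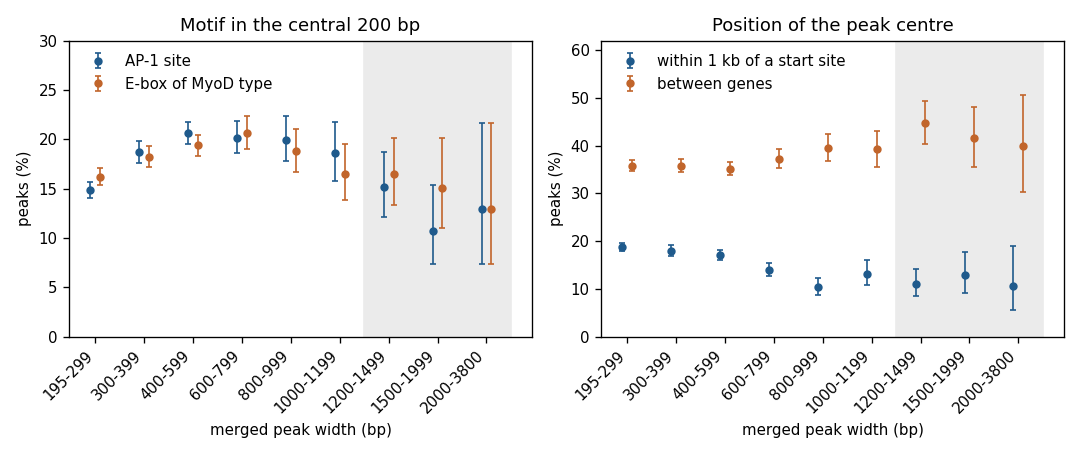
Share of merged peaks (y axis, %, with 95% Wilson intervals) by width (x axis, bp), for an AP-1 heptamer or a CAGCTG E-box (MyoD type) in the central 200 bp (left), and for the position of the centre (right); the shaded classes are the wide peaks. The AP-1 share was 20.6% at 400 to under 600 bp, 15.2% at 1200 to under 1500 bp, 10.7% at 1500 to under 2000 bp and 12.9% from 2000 bp, where the interval was 7.38 to 21.7%.

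Genes of muscle regulation and of the matrix had wide peaks nearby. Of 30 myogenic regulators, 7 (23.3%, interval 11.8 to 40.9%) had a wide peak within 50 kb of the start site, and of 38 extracellular matrix genes 7 (18.4%, interval 9.22 to 33.4%). In a list of 32 genes named for AP-1, RUNX, TEAD and SRF factors there were 5 (15.6%, interval 6.86 to 31.7%). This list also holds cofactors and genes of other factors, such as Egr1 and the Klf and Nfi families. Of 44 genes of the actin cytoskeleton and focal adhesion there were 4 (9.09%, interval 3.59 to 21.2%). Over all 20807 autosomal protein-coding genes the share was 4.24%. For comparison, 5 of 40 ribosomal protein genes (12.50%, interval 5.46 to 26.1%) and 1 of 38 neuronal genes (2.63%) had one, so the shares above all genes were not limited to genes of muscle. Of 40 genes of the sarcomere and muscle fibre 1 (2.50%) had a wide peak, which was Mb, the gene of myoglobin, and of 35 growth factors and receptors 1 (2.86%). Neighbouring genes can share a member, as Myf5 with Myf6 and Col4a1 with Col4a2 did, so these counts are not independent. A merged peak of any width lay within 50 kb of 56.1% of all genes. This share was 80% for myogenic regulators, 86.8% for matrix genes, 96.9% for the factor list and 90.9% for actin genes. It was 85, 75, 80 and 34.2% for ribosomal protein, sarcomere, growth factor and neuronal genes. The lists above all genes for wide peaks were thus also above them for merged peaks of any width.

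Among the regulators, Hes1, the Notch target that represses differentiation, had a member of 1921 bp at its start site, with single peaks of 949 bp after 30 and 1535 bp after 36 cycles. Snai2, a repressor of the Snail family, had 1804 bp at 0.237 kb upstream, and Msc, a repressor of MyoD activity, 1477 bp at 18.6 kb upstream. Myf5 and Myf6, a pair of myogenic factors, shared 1479 bp at chr10:107502740-107504218, 16.6 kb upstream of Myf5 and 8.003 kb upstream of Myf6. There the single peaks were only 711 bp after 30 cycles and 760 bp after 36 cycles, so the width came from joining. No wide peak lay within 100 kb of Myod1, the gene of MyoD, where the widest of 2 merged peaks had 586 bp, or of Plxna2, a semaphorin receptor gene, where the widest of 5 had 728 bp.

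Of the matrix genes, Col1a2 had a member of 1832 bp at 46.8 kb upstream, fibronectin (Fn1) 1555 bp at the start site, Lox, a crosslinking enzyme of collagen, 1272 bp at 5.10 kb upstream, the laminin gene Lamc1 1246 bp in the gene and Ccn1 1224 bp at 1.39 kb upstream. Of the factors, the AP-1 genes Fosl2 and Fosl1 had widest members of 1673 bp at the start site and 1233 bp at 16.9 kb upstream, and Atf3 had 1215 bp downstream of its start, in the gene. Tead2 had 1390 bp at 23.1 kb upstream, and the neuronal transporter gene Slc17a7 counts through this same member. Among cytoskeletal genes there were Myh9, the heavy chain of nonmuscle myosin (1508 bp), and Zyx and Pxn of focal adhesions (1239 and 1205 bp). Myoglobin (Mb) was the gene counted among sarcomere and muscle fibre genes, with 1412 bp inside it, and the cytokine gene Lif the one among growth factors, with 1356 bp at 41.3 kb. The ribosomal protein genes were Rpl27, Rpl19, Rps16, Rpl30 and Rpl8, at 25.2 to 44.3 kb from the start site. The Rpl19 member covers tRNA genes.

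The genes with the most members, counted within the gene or within 50 kb of its start, were Runx1 and Dlgap1 with 5 each. Runx1, a transcription factor gene known from blood formation, had 4 members in its body or at its start site and 1 at 1.42 kb upstream, the widest 2121 bp. All 5 Dlgap1 members lay in the gene, the widest 2425 bp, and the start site nearest to them was that of Tgif1. A further 20 genes had 3 members, some through the same ones, such as Ahnak, Aig1, Anxa2, which encodes a membrane-binding annexin, and Ccn4.

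**Figure D5:**
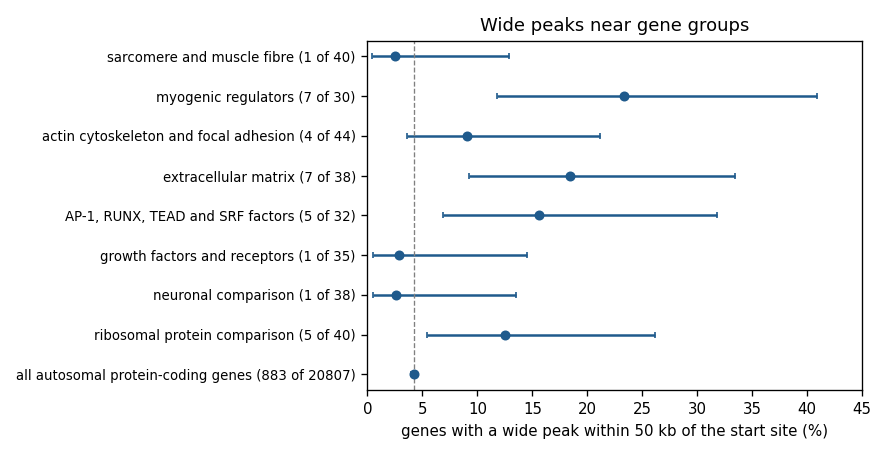
Share of the genes of each group with a wide peak within 50 kb of the start site (x axis, %), with 95% Wilson intervals and the counts in the labels; the dashed line is the share of all autosomal protein-coding genes, 4.24%. The intervals of myogenic regulators, extracellular matrix, the AP-1, RUNX, TEAD and SRF factors and the ribosomal proteins lie above it. These groups also stood above all genes for merged peaks of any width.

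RefSeq lists 1006 enhancers on the autosomes. Of the wide peaks, 7 (0.906%, interval 0.439 to 1.86%) overlapped 1 each, compared with 1.09% of peaks of 800 to under 1200 bp and 0.560% of all others. The 7 overlapped elements are of the VISTA collection, whose enhancers were assayed in mouse embryos. Parts of the brain were among the sites of activity of 3 of these elements, near Polr1a, Irf2bpl and Jmjd1c, and the limb among those of 3, near Kirrel, Jmjd1c and Sec61g. The element near Tlr1 was active in ganglia and cranial nerves. Activity in somites, from which skeletal muscle arises, was listed for 1 of the 7, together with the heart, and this element is overlapped by the member in Mb at chr15:77036196-77037607.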

How the data were processed

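WFS1 ChIP-seq libraries of wildtype C2C12 cells after 30 and 36 sonication cycles were analyzed from the deposited peak lists, which hold chromosome, start and end, that is positions in bp and no other measure. For each library on its own, the authors aligned reads to GRCm38 (NextGenMap), filtered them on mapping quality (SAMtools) and made a peak list (MACS2). The control used in peak calling is not given in the sources used here.

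Lists were merged (any overlap or contact, checked to equal bedtools merge), and autosomal merged peaks of 1200 bp or more were kept. Genes and start sites came from GENCODE mouse release 21, with 1 start site per gene, tRNA genes and enhancers from RefSeq, and sequences from the RefSeq GRCm38 genome. Motifs were counted on both strands in the central 200 bp, the whole peak and every consecutive autosomal window of 200 and 1400 bp without N. Distances to named genes were measured from the closer edge of a peak.

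The members and lists were chosen with earlier results of these data known. Named were the 15 widest members, the 3 just inside and outside the limit, the 5 with the most of each motif, the 5 genes with the most members, of which 2 were clear of ties, up to 5 genes per list, and Myod1, Myf5 and Plxna2. A gene that this rule names is not reported here. Windows were printed where they held the most sites, leaving out chromosome 18, UTRs, and those with 1 site; a Lama5 window was also left out. Tandem arrays, CAGGTG, tRNA and histone genes, enhancers and chromosomes were named after their values were seen. With 1 library per condition no test was run. Merging, motif search and repeat detection were tested on simulated data. Alternatives were other width minimums, each list alone, other centres, distances and comparison peaks. The centre of the stretch in both lists and leaving out tandem repeats were added after the data were seen. Tools were python 3.11.15, numpy 2.4.6, scipy 1.17.1, matplotlib 3.10.9 and bedtools 2.31.1.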

Additional observations from a re-analysis of the deposited data

How the results depend on the processing

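Of 71 alternative values for 18 results, 44 stayed within the interval of the value reported (for the number of wide peaks, within 1.5 times). The number of wide peaks was 1538 with peaks up to 500 bp apart merged, 465 in the 30-cycle list alone and 277 in the 36-cycle list alone. With a minimum of 1000 and 1500 bp, 96.9 and 99.4% were in both lists. The share at a start site was 27.4% within 5 kb, 16.9% with every annotated transcript start and 6.86% with protein-coding genes only, and the share between genes was then 57.6%. AP-1 in the central 200 bp was found in 11.3% of peaks of at least 1500 bp, 11.2% in the 36-cycle list alone and 18.2% around the stretch in both lists, and in 31.0% of central 500 bp. The AP-1 ratio was 0.5999 in the 36-cycle list alone and 0.975 around the stretch in both lists. For CAGCTG, the shares in the central 500 bp and around that stretch were 33.1 and 19.7%, and the ratio was 0.733 against other peaks in both lists and 1.07, above 1, around that stretch. For both motifs, peaks without a stretch in both lists kept their midpoint, so these ratios mix centres of different kinds. Within 10 kb of the start site, a wide peak was found for 10% of myogenic regulators, 2.27% of actin cytoskeleton and focal adhesion genes and 1.02% of all protein-coding genes. At that distance the share was 0% for the sarcomere and muscle fibre, growth factor, neuronal and ribosomal protein genes. Within 100 kb it was 7.97% for all protein-coding genes. No paired analysis was possible because the lists come from 1 library per condition. In 187 members the width came from merging, and in the others the parts of sonication and of depth, which is unknown, cannot be told apart here.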
